A study of Mus musculus with 8 samples.

Results

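Collagens and the other proteins of the stromal extracellular matrix were followed in mouse embryonic stem (ES) cells with a knockdown of Taf5. The set is a list of 34 genes: fibrillar and other collagens except type IV, the enzymes that modify and crosslink collagen, matrix glycoproteins and proteoglycans, and the proteases and inhibitors that remodel the matrix. Of these, 33 were measured and none was lost to the filter on dim spots. Lox, which encodes a collagen crosslinking enzyme, was not analysed here, because no probe carries that symbol. The 33 genes have 76 probes, of which the brightest was used for each gene, and they are part of 25150 features tested, 18258 of them with a gene symbol.

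Taf5 encodes a subunit of TFIID, the complex that recognises core promoters for RNA polymerase II, and the series examines that complex in pluripotent cells. All cells derive from IB10, a subclone of the E14 mouse ES cell line, and were cultured on gelatin with serum and LIF. There were 2 Taf5-kd lines and 2 Ctrl-kd lines, made by transduction with a pLKO-puro lentivirus carrying an shRNA against Taf5 or a control shRNA, puromycin selection and picking of colonies, so each line is 1 clone. Each line was grown in duplicate, and RNA of each culture was hybridised with a pool of parental RNA on a dual-colour array, which gives 8 arrays, with the dyes exchanged between the arrays of a line. The parental cells carried no shRNA vector, and the spread of the parental pool itself was not measured.

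Fibrillar collagens are made as procollagen chains that prolyl and lysyl hydroxylases modify in the endoplasmic reticulum, where the chaperone Hsp47 (Serpinh1) binds the triple helix. Outside the cell the chains assemble with fibronectin, fibrillins, fibulins and small proteoglycans, and lysyl oxidases crosslink them. Matrix metalloproteinases cut these proteins and are held in check by the Timp inhibitors. The stroma made by fibroblasts is rich in such a matrix, while epithelia of the early embryo rest on basement membranes of laminin and type IV collagen.

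Every value below is a log2 ratio to the parental pool, or a difference of such ratios, after background correction and normalization within each array. The average effect of the dye on each feature was removed. All first arrays of the lines share a dye orientation, so this effect cannot be told apart from one of array number. The arrays had a median sample intensity of 123 to 186 over a background of 35 to 39.5, and 90.9 to 98.7% of the mouse probes were above background. The number of arrays limits the precision. Cultures of the same line correlated at 0.946 to 0.970 across features, different lines of the same group at 0.741 to 0.834, and lines of different groups at 0.166 to 0.487. Taf5 was 0.44 and 0.51 on the arrays of Ctrl-kd line 1, 0.14 on both of Ctrl-kd line 2, -1.09 and -1.07 for Taf5-kd line 1, and -1.06 and -1.16 for Taf5-kd line 2. It was lower in the Taf5-kd lines by 1.41 ± 0.13 on the log2 scale (difference ± SE, 2 lines against 2, limma adjusted p = 0.027), in accordance with the labels. Groups were compared on 1 mean per line, since the knockdown is a property of the clone, and a difference was called at a Benjamini-Hochberg adjusted p under 0.05 across all 25150 features.

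Most of the matrix genes stood below the parental pool in all 4 knockdown lines. All 4 Ctrl-kd arrays were below the parental level for 24 of the 33 genes, all 4 Taf5-kd arrays for 19, and all 8 arrays for 19. In Ctrl-kd, 15 genes were called lower than the parental pool and 0 higher, which is 45.5% of the list, beside 21.4% of all features called in either direction, 13% called lower and 8.38% called higher. Taf5-kd had 8 genes lower (24.2%) and 2 higher (6.06%), beside 18.4% of all features called, 10.7% lower and 7.74% higher. The median over the 33 genes was -0.24 in Ctrl-kd and -0.18 in Taf5-kd, and over all features 0.0035 and -0.0031. With median centring in place of loess, 6 genes were called lower in Ctrl-kd and 1 in Taf5-kd, beside 691 and 119 of all features. Line by line, the median over the 33 genes was -0.26 and -0.23 in Ctrl-kd lines 1 and 2. It was -0.10 and -0.11 in Taf5-kd lines 1 and 2. The knockdown groups share the parental pool, and transduction, selection and clonal growth cannot be told apart from the control shRNA in a comparison with it.

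Between the groups, 3 genes were higher in Taf5-kd and 0 lower (limma, adjusted p). That is 9.09% of the list, beside 7.75% of all features called, 4.5% higher and 3.25% lower, so the share of the list is near the background. The 3 genes are Mmp2, which encodes the gelatinase A protease, Col5a2, which encodes a chain of type V collagen, and Timp2, which encodes an inhibitor of Mmp2 that also takes part in its activation. The 4 arrays of each group did not overlap for 14 genes, 9 of them higher and 5 lower in Taf5-kd, or 42.4% of the list beside 36.2% of all features (18.1% in each direction). The median difference over the list was 0.035 and over all features -0.0063.

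**Figure D1:**
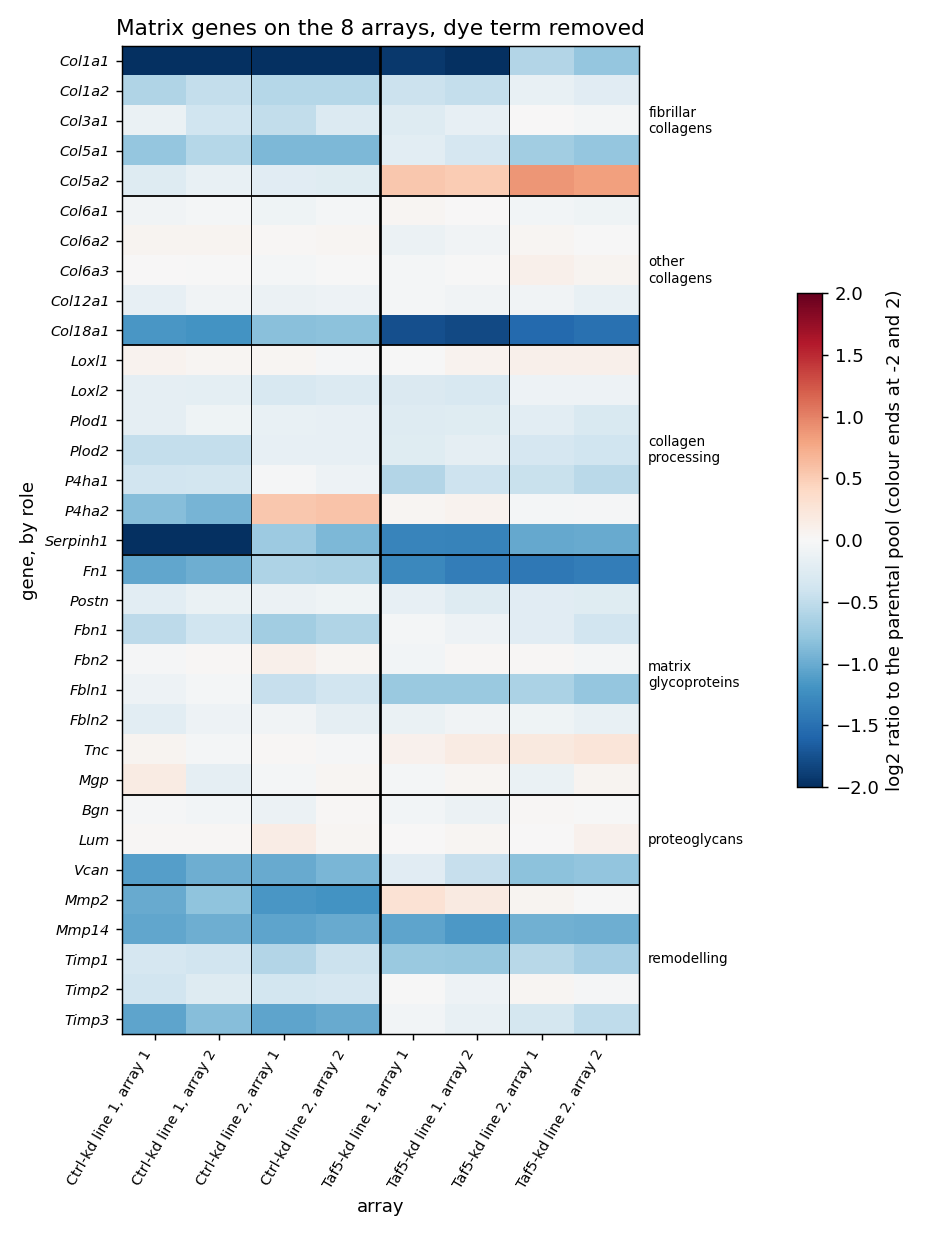
Log2 ratio to the parental pool of the 33 matrix genes (rows, ordered by role) on the 8 arrays (columns), with the dye term removed. Blue is below and red above the parental level, and the colour ends at -2 and 2. All 8 arrays are below 0 for 19 genes, and Col5a2 is above 0 on the 4 Taf5-kd arrays and below it on the 4 Ctrl-kd arrays.

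On the brightest probes, the 5 fibrillar collagen genes all had Ctrl-kd means below the parental pool. Of these, 4 were called lower: Col1a1, Col1a2, Col3a1 and Col5a1. All 5 had a higher mean in Taf5-kd than in Ctrl-kd, but only Col5a2 was called. The dimmer probes of Col1a2, Col3a1 and Col5a1 stood near the parental level in the Ctrl-kd lines, from -0.03 to 0.08. Col1a1, on chromosome 11, encodes the more abundant chain of type I collagen. It had the lowest ratios of the list in both Ctrl-kd lines and in Taf5-kd line 1, but not in Taf5-kd line 2. The values were -3.08 and -2.68 on the arrays of Ctrl-kd line 1, -3.31 and -3.30 for Ctrl-kd line 2, -1.93 and -2.14 for Taf5-kd line 1, and -0.58 and -0.78 for Taf5-kd line 2. All 4 Taf5-kd arrays were above all 4 Ctrl-kd arrays, and the Taf5-kd lines lay farther apart than the Ctrl-kd lines. The Ctrl-kd mean was -3.09 ± 0.30 (SD, n = 4 arrays), 8.53-fold below the parental pool (adjusted p = 0.016). The Taf5-kd mean was -1.36 ± 0.79 (SD, n = 4 arrays), and its difference from Ctrl-kd of 1.74 ± 0.51 was not called (adjusted p = 0.14, 95% confidence interval 0.30 to 3.17). It was called when arrays were fitted with the line as a random block (adjusted p = 0.014 with the replicate block, 0.010 without). On simulated data that fit made more false calls than line means, and also recovered more of the changes put in. In the authors' deposited table the same difference was 1.96 with a p-value of 0.003, from a test not given in the sources used here. Both dimmer Col1a1 probes gave smaller values, with differences of 0.13 and -0.036 between the groups.

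Col5a2, on chromosome 1, was the member for which all 4 Ctrl-kd arrays were below the parental level and all 4 Taf5-kd arrays above it. It read -0.26 and -0.15 on the arrays of Ctrl-kd line 1, -0.23 and -0.24 for Ctrl-kd line 2, 0.54 and 0.50 for Taf5-kd line 1, and 0.88 and 0.82 for Taf5-kd line 2. The groups did not overlap, and both Taf5-kd lines were above the pool. The difference was 0.90 ± 0.13, or 1.87-fold (adjusted p = 0.041, 95% confidence interval 0.55 to 1.26). Against the pool, Taf5-kd was higher by 0.68 ± 0.09 (adjusted p = 0.022), while the Ctrl-kd mean of -0.22 ± 0.09 was not called (adjusted p = 0.18). Its partner chain gene Col5a1 was -0.77 and -0.58 in Ctrl-kd line 1, -0.89 on both arrays of Ctrl-kd line 2, -0.21 and -0.34 in Taf5-kd line 1, and -0.69 and -0.77 in Taf5-kd line 2. Here the groups overlapped, and all 8 arrays were below the pool. Col5a1 was lower in Ctrl-kd than in the pool by 0.78 ± 0.13 (adjusted p = 0.030), and the groups differed by 0.28 ± 0.19 (adjusted p = 0.44). A second Col5a1 probe was nearly as bright, with a mean log2 intensity of 7.58 beside 7.75. It read 0.08 and 0.07 in Ctrl-kd lines 1 and 2, and -0.03 and -0.02 in Taf5-kd lines 1 and 2.

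Col1a2, the second chain of type I collagen, ran from -0.59 to -0.47 in Ctrl-kd and from -0.47 to -0.15 in Taf5-kd, so the groups only just failed to overlap. Its Ctrl-kd mean was -0.55 ± 0.07 (SE) against the pool (adjusted p = 0.019), and the Taf5-kd mean of -0.32 ± 0.07 was not called (adjusted p = 0.058). Col3a1, the chain of type III collagen, was lower in Ctrl-kd by 0.32 ± 0.06 (adjusted p = 0.042), with overlapping groups.

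The non-fibrillar collagens were near the parental level, apart from Col18a1. Type VI collagen forms beaded filaments beside the cell surface, and its genes Col6a1, Col6a2 and Col6a3 had group means from -0.06 to 0.04. Col12a1, a collagen that decorates fibrils, had means of -0.11 in Ctrl-kd and -0.08 in Taf5-kd. None of these 4 was called in any of the 5 comparisons. Col18a1, on chromosome 10, encodes a basement membrane collagen whose end fragment is endostatin, and its probe was the brightest of the list. It read -1.16 and -1.19 on the arrays of Ctrl-kd line 1, -0.84 and -0.82 for Ctrl-kd line 2, -1.76 and -1.81 for Taf5-kd line 1, and -1.56 and -1.50 for Taf5-kd line 2. Every array was below the pool, and the Taf5-kd arrays were lower than all Ctrl-kd arrays. Against the pool, Col18a1 was lower by 1.00 ± 0.11 in Ctrl-kd (adjusted p = 0.016) and by 1.66 ± 0.11 in Taf5-kd (adjusted p = 0.010). The difference of -0.66 ± 0.16 between the groups was not called (adjusted p = 0.099), and it was only in the random-block fits (adjusted p = 0.0054 with the replicate block, 0.0051 without).

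Among the 7 measured genes of collagen processing, none differed between the groups by the test. Plod1, a lysyl hydroxylase, was lower than the pool by 0.15 ± 0.03 in Ctrl-kd (adjusted p = 0.038) and by 0.26 ± 0.03 in Taf5-kd (adjusted p = 0.017). P4ha1, a catalytic subunit of prolyl 4-hydroxylase, was lower than the pool by 0.50 ± 0.08 in Taf5-kd (adjusted p = 0.035), and its Ctrl-kd mean of -0.22 ± 0.08 was not called (adjusted p = 0.16). The crosslinking enzyme genes Loxl1 and Loxl2 had group means from -0.24 to 0.07, and Plod2, another lysyl hydroxylase, had means of -0.32 and -0.29. The largest spread in this group lay between the control clones. Serpinh1 read -2.60 and -2.43 on the arrays of Ctrl-kd line 1, -0.73 and -0.89 for Ctrl-kd line 2, -1.32 and -1.34 for Taf5-kd line 1, and -1.02 and -1.01 for Taf5-kd line 2. All arrays were below the pool, and the Taf5-kd lines lay between the Ctrl-kd lines, so its group difference of 0.49 had a 95% confidence interval of -1.27 to 2.25. That difference was -0.36 without Ctrl-kd line 1 and 1.34 without Ctrl-kd line 2, and for P4ha2 (0.18 with all lines) it was -0.55 and 0.90.

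Of the 8 matrix glycoprotein genes, 3 were lower than the pool in Ctrl-kd (Fn1, Fbn1 and Fbln2), and 3 were lower (Fn1, Fbln1 and Postn) and 1 higher (Tnc) in Taf5-kd. Fn1, on chromosome 1, encodes fibronectin, the adhesive glycoprotein on which collagen fibrils assemble. It read -1.04 and -0.98 on the arrays of Ctrl-kd line 1, -0.62 and -0.64 for Ctrl-kd line 2, -1.29 and -1.38 for Taf5-kd line 1, and -1.42 and -1.38 for Taf5-kd line 2. The 4 Taf5-kd arrays were below the 4 Ctrl-kd arrays. Fn1 was lower than the pool by 0.82 ± 0.10 in Ctrl-kd (adjusted p = 0.018) and by 1.37 ± 0.10 in Taf5-kd (adjusted p = 0.011). The group difference of -0.55 ± 0.14 was not called (adjusted p = 0.11), and it was only in the random-block fits (adjusted p = 0.0090 with the replicate block, 0.020 without). All 4 Fn1 probes had a lower mean in Taf5-kd, by 0.17 to 0.74.

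Fbn1, which encodes the microfibril protein fibrillin 1, ran from -0.69 to -0.40 in Ctrl-kd and from -0.38 to -0.03 in Taf5-kd. The Ctrl-kd mean of -0.55 ± 0.08 was called (adjusted p = 0.023), and the Taf5-kd mean of -0.18 ± 0.08 was not (adjusted p = 0.21), but the difference between the groups was not called either (0.37 ± 0.11, adjusted p = 0.15). Fbln1, a fibulin of elastic fibres and basement membranes, was -0.10 and -0.05 in Ctrl-kd line 1, -0.46 and -0.38 in Ctrl-kd line 2, -0.74 and -0.73 in Taf5-kd line 1, and -0.64 and -0.77 in Taf5-kd line 2. It was below the pool on every array, and above background on 4 Ctrl-kd and 2 Taf5-kd arrays in the sample channel. Its Taf5-kd mean was lower than the pool by 0.72 ± 0.09 (adjusted p = 0.022). Postn, which encodes the matricellular protein periostin, was lower by 0.22 ± 0.03 in Taf5-kd (adjusted p = 0.025), and its Ctrl-kd mean of -0.14 ± 0.03 was the nearest outside the threshold (adjusted p = 0.055). Tnc, which encodes the anti-adhesive glycoprotein tenascin C, was 0.17 ± 0.04 above the pool in Taf5-kd (adjusted p = 0.0498). Its dimmer probes did not show this, with Taf5-kd line means from -0.26 to 0.04 against the pool. The 5 Tnc probes gave group differences from -0.06 to 0.31. Fbn2 and Mgp, a microfibril protein and an inhibitor of calcification, had group means from -0.02 to 0.03 and were not called in any comparison.

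Among the 3 proteoglycan genes, Vcan was lower than the pool, and Bgn and Lum, small leucine-rich proteoglycans of collagen fibrils, had group means from -0.04 to 0.06. Vcan encodes versican, a large proteoglycan that binds hyaluronan. It read -1.10 and -0.98 on the arrays of Ctrl-kd line 1, -1.01 and -0.92 for Ctrl-kd line 2, -0.22 and -0.46 for Taf5-kd line 1, and -0.82 and -0.80 for Taf5-kd line 2. The groups did not overlap, though Taf5-kd line 2 lay closer to the Ctrl-kd lines than to Taf5-kd line 1. The Ctrl-kd mean was lower than the pool by 1.00 ± 0.12 (adjusted p = 0.018). The Taf5-kd mean of -0.57 ± 0.12 was the nearest outside the threshold (adjusted p = 0.054), and the group difference was 0.43 ± 0.17 (adjusted p = 0.24). Only the brightest of 5 Vcan probes showed this, and the 4 dimmer probes had group differences from -0.07 to 0.06.

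The 5 genes of matrix remodelling were all lower than the parental pool in Ctrl-kd, and they differed in their Taf5-kd values. In Taf5-kd, Mmp2 (chromosome 8), Timp2 (chromosome 11) and Timp3 (chromosome 10) had means of 0.13, -0.02 and -0.26 and were not called against the pool. Mmp14 (chromosome 14) and Timp1 (chromosome X) were lower than the pool in Taf5-kd too. Mmp14 encodes a membrane-bound metalloproteinase that activates pro-Mmp2 in a complex with Timp2, and Timp1 and Timp3 encode inhibitors of metalloproteinases, Timp3 being bound to the matrix. Promoters of 3 of these genes are shown, chosen because all 3 genes were lower in Ctrl-kd than in the pool, while against Ctrl-kd their Taf5-kd value was called higher (Timp2), just missed the threshold (Timp3) or was close to no difference (Mmp14). Each line holds the 250 bases before the annotated start, 5′ to 3′ on the strand of the gene, from RefSeq (GRCm38.p6), with the letters GGGCGG or CCAAT on either strand in capitals. The regions are chr11:118355412-118355661 on the minus strand for Timp2, chr10:86300162-86300411 on the plus strand for Timp3 and chr14:54431348-54431597 on the plus strand for Mmp14.
Timp2: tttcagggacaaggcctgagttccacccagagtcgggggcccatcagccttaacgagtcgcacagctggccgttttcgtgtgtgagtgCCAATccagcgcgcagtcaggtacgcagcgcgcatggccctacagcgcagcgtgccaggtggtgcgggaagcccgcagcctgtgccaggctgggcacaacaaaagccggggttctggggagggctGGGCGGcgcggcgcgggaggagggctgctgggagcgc
Timp3: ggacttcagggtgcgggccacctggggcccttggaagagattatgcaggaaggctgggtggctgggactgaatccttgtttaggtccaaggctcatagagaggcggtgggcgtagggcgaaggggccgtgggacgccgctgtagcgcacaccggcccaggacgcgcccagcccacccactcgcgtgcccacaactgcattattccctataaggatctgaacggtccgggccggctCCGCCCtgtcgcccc
Mmp14: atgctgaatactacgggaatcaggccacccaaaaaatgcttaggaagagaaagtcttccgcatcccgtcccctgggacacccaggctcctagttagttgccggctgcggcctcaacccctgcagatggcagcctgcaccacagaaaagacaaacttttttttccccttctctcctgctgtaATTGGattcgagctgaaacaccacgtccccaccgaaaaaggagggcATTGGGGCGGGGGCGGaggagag
Timp2 has 1 GGGCGG and 1 CCAAT on the gene strand, Timp3 has 1 CCGCCC, the same letters on the other strand, and Mmp14 has 2 GGGCGG and 2 ATTGG, the other strand of CCAAT. In Mmp14 the second ATTGG runs into the first GGGCGG, so their letters overlap. Of the 33 genes, 22 matched the table, with 27 promoters, and GGGCGG on either strand was in 20 of these (74.1%) beside 32.7% of all 32851 promoters in windows of the same length. CCAAT was in 6 (22.2%, beside 33.8%) and TATAAA in 5 (18.5%, beside 12.4%), and none of the 3 printed windows holds TATAAA. The 300-base windows of the list had a median of 60.3% G and C, beside 52.7% for all promoters. These are matches of letters, not tested sites.

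Mmp2 had the largest called difference between the groups in the list. It read -1.0 and -0.80 on the arrays of Ctrl-kd line 1, -1.16 and -1.19 for Ctrl-kd line 2, 0.29 and 0.18 for Taf5-kd line 1, and 0.06 and -0.01 for Taf5-kd line 2. All 4 Ctrl-kd arrays lay well below the pool, and the Taf5-kd arrays lay about the parental level. Mmp2 was 2.25-fold higher in Taf5-kd (1.17 ± 0.13, adjusted p = 0.031, 95% confidence interval 0.80 to 1.53). Ctrl-kd was lower than the pool by 1.04 ± 0.09 (adjusted p = 0.011), and Taf5-kd lay 0.13 ± 0.09 from it (adjusted p = 0.405).

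Timp2 read -0.38 and -0.26 on the arrays of Ctrl-kd line 1, -0.37 and -0.33 for Ctrl-kd line 2, -0.01 and -0.09 for Taf5-kd line 1, and 0.04 and -0.03 for Taf5-kd line 2. The groups did not overlap, and the Taf5-kd arrays were within 0.1 of the pool. The difference was 0.31 ± 0.04, or 1.24-fold (adjusted p = 0.041). Timp3 read -1.06 and -0.85 on the arrays of Ctrl-kd line 1, -1.05 and -1.01 for Ctrl-kd line 2, -0.05 and -0.14 for Taf5-kd line 1, and -0.35 and -0.51 for Taf5-kd line 2. The groups did not overlap here either. The difference of 0.73 ± 0.13 for Timp3 was the nearest outside the threshold in the list (adjusted p = 0.057), and it was called on the authors' processed values (adjusted p = 0.034). Its dimmer probe stood at the parental level in all 4 lines, from -0.07 to 0.01.

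Mmp14 was -1.04 and -0.97 in Ctrl-kd line 1, -1.06 and -1.01 in Ctrl-kd line 2, -1.05 and -1.15 in Taf5-kd line 1, and -0.95 and -0.97 in Taf5-kd line 2. All 8 arrays were at a like level below the pool, and the groups overlapped. Mmp14 was lower by 1.02 ± 0.04 in Ctrl-kd (adjusted p = 0.0078) and by 1.03 ± 0.04 in Taf5-kd (adjusted p = 0.0097), and the difference between the groups was -0.01 ± 0.06, with a 95% confidence interval of -0.19 to 0.17. Timp1 was lower by 0.43 ± 0.06 in Ctrl-kd (adjusted p = 0.021) and by 0.68 ± 0.06 in Taf5-kd (adjusted p = 0.013), with overlapping groups.

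**Figure D2:**
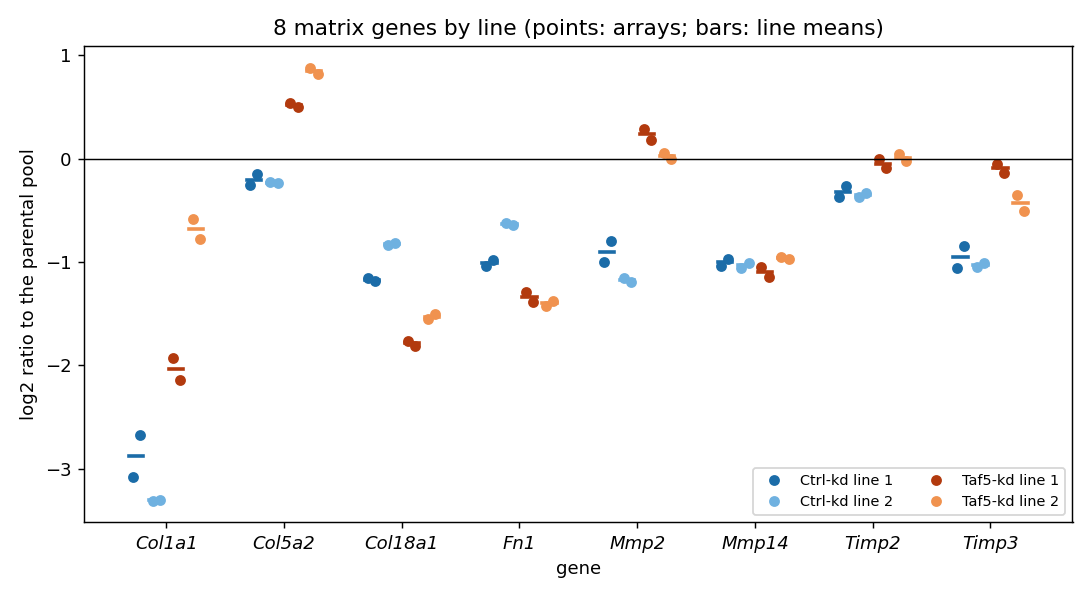
Log2 ratio to the parental pool (vertical axis) of 8 matrix genes (horizontal axis) in the 4 lines; points are arrays and bars are line means. Mmp2, Timp2 and Timp3 are lower in the Ctrl-kd lines than in the Taf5-kd lines, Col18a1 and Fn1 are lower in the Taf5-kd lines, and Mmp14 is about -1 in all 4.

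The 3 calls between the groups rest on 2 clones each. They also rest on 1 probe each, so no second probe of these genes can be set beside them. With any 1 of the 4 lines left out, its group has 1 line, so only the sizes of the differences are given here. They were 1.03 to 1.30 for Mmp2, 0.74 to 1.07 for Col5a2 and 0.28 to 0.34 for Timp2. Without the first array of Ctrl-kd line 1, 0 matrix genes were called, with adjusted p of 0.056 for Mmp2, 0.054 for Col5a2 and 0.086 for Timp2. With median centring in place of loess the count was 0 as well, with adjusted p of 0.054 for Mmp2, 0.11 for Col5a2 and 0.71 for Timp2. Timp2 also lost its call without the second array of Ctrl-kd line 2 (adjusted p = 0.051) or the first array of Taf5-kd line 1 (adjusted p = 0.072). Chromosomes 8 and 11 stood apart from the others, with median differences between the groups of 0.13 and 0.095 across their features. They hold 4 of the matrix genes, Mmp2, Col1a1, P4ha2 and Timp2. With the median of each chromosome removed, Mmp2 was higher by 1.06 (adjusted p = 0.040), Col5a2 by 0.90 (adjusted p = 0.045), and Timp2 by 0.23, no longer called (adjusted p = 0.069).

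**Figure D3:**
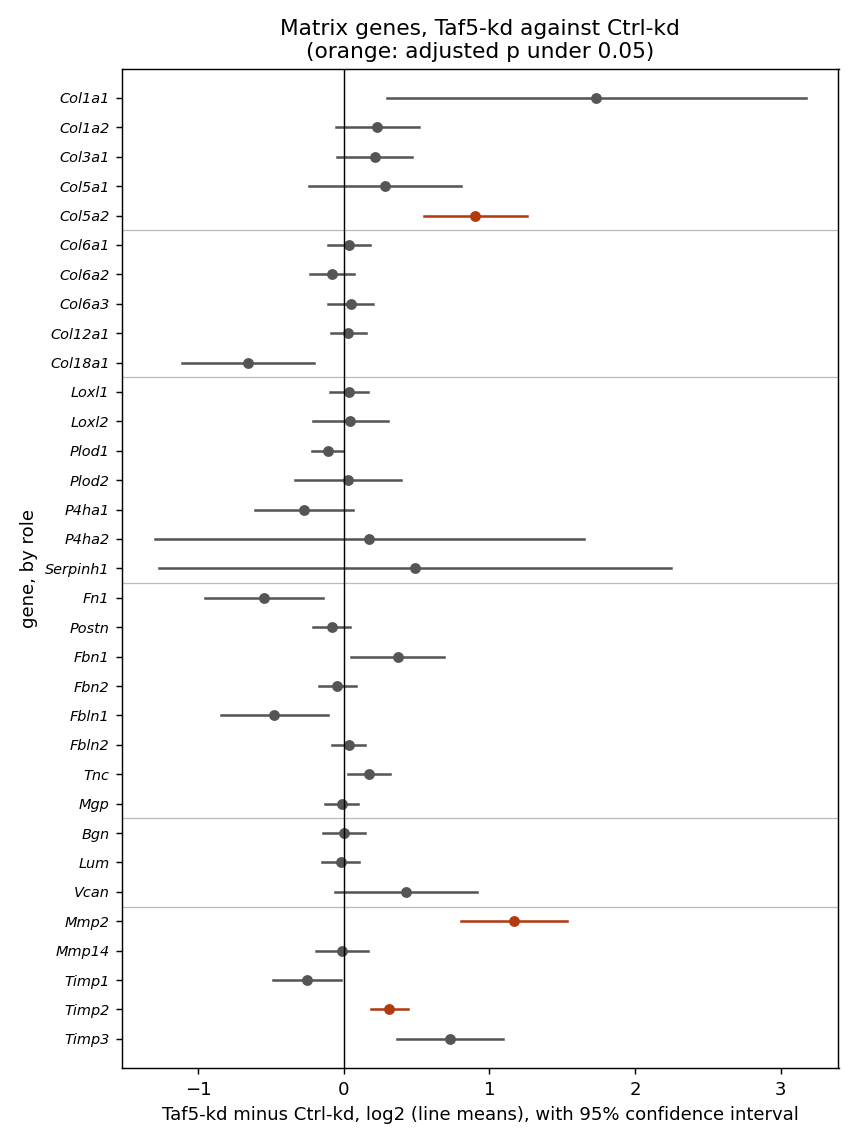
Difference between Taf5-kd and Ctrl-kd for each of the 33 matrix genes (log2, from 1 mean per line), with 95% confidence intervals, ordered by role. Orange marks the 3 genes with an adjusted p under 0.05, Col5a2, Mmp2 and Timp2. The widest intervals belong to Serpinh1, P4ha2 and Col1a1.

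Clones of the same group differed from each other in several matrix genes. These comparisons set the cultures of 1 clone against those of another, and their p-values measure the spread between cultures only. Between the Ctrl-kd lines, 6 genes were lower and 2 higher in line 1, 24.2% of the list beside 13.4% of all features (6.76% lower and 6.66% higher). The largest differences were in collagen processing, where 4 of 7 genes were lower in line 1. Serpinh1 was lower by 1.70 ± 0.07, or 3.26-fold (adjusted p = 8.6e-06). P4ha2, a catalytic subunit of prolyl 4-hydroxylase, read -0.86 and -0.93 in Ctrl-kd line 1 and 0.54 and 0.57 in Ctrl-kd line 2, on opposite sides of the pool, while the Taf5-kd arrays ran from -0.04 to 0.07. The difference between the Ctrl-kd lines was -1.45 ± 0.05 (adjusted p = 2.8e-06). A second, much dimmer P4ha2 probe (mean log2 intensity 6.52 beside 10.18) did not show this, at 0.03 and 0.06 in Ctrl-kd lines 1 and 2. Smaller differences of -0.38 for Fn1, -0.35 for Col18a1, -0.32 for P4ha1, -0.30 for Plod2, 0.35 for Fbln1 and 0.27 for Mmp2 were called too.

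Markers of parietal endoderm, an extraembryonic cell type that secretes basement membrane and can arise in ES cultures, also differed between the Ctrl-kd lines. Of 16 such markers, 12 (75%, beside 6.76% of all features) were lower in Ctrl-kd line 1 than in line 2 and 1 was higher. The lower ones included Gata6 (by 2.49 ± 0.12, adjusted p = 1.3e-05), Col4a1 (by 2.06 ± 0.09) and Dab2 (by 1.79 ± 0.05), and the higher one was Nid1 (0.27 ± 0.07, adjusted p = 0.031). Gata6 was -0.07 and 0.05 on the arrays of line 1 and 2.68 and 2.29 on those of line 2. The median of the list was -0.11 in Ctrl-kd line 1, 0.25 in Ctrl-kd line 2, -0.29 in Taf5-kd line 1 and -0.10 in Taf5-kd line 2. Across the groups the order of the lines was not the same for Serpinh1 and P4ha2. Their means were -2.52 and -0.89 in Ctrl-kd line 1, and -1.33 and 0.05 in Taf5-kd line 1. The part of the markers in the Serpinh1 and P4ha2 values was not tested. In RNA of whole cultures, fewer cells of a type and less RNA per cell cannot be told apart.

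**Figure D4:**
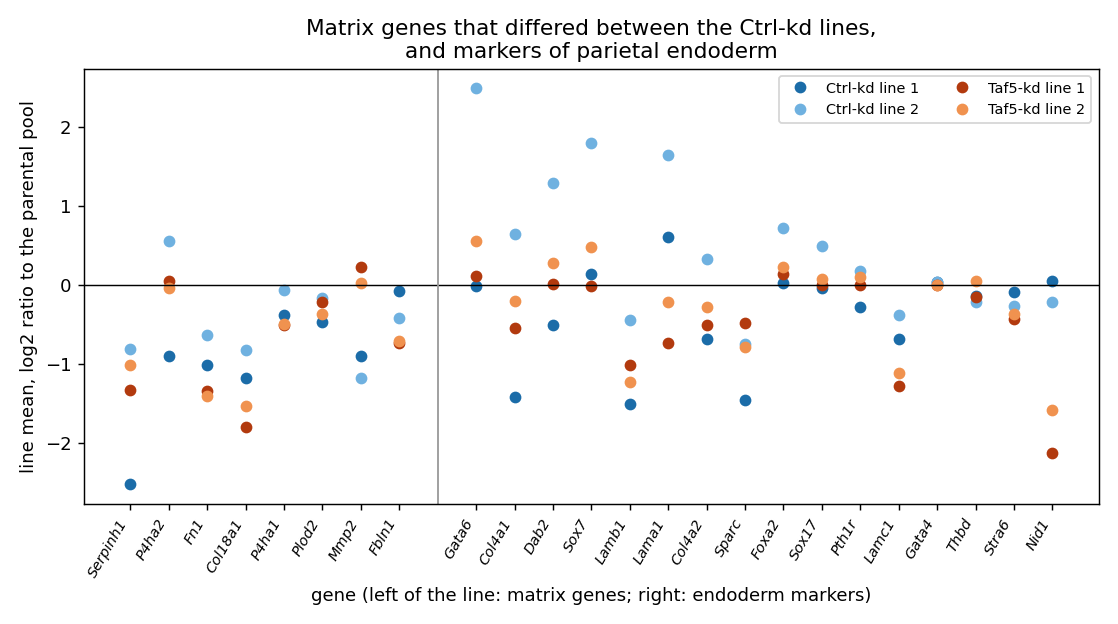
Line means (log2 ratio to the parental pool, vertical axis) of the 8 matrix genes that differed between the Ctrl-kd lines (left) and of 16 parietal endoderm markers (right); each point is 1 line. Serpinh1 and P4ha2 are higher in Ctrl-kd line 2, as are Gata6, Col4a1 and Dab2.

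Between the Taf5-kd lines, 6 genes were lower and 3 higher in line 1, 27.3% of the list beside 13.6% of all features (4.06% lower and 9.49% higher). Fibrillar collagens made up 4 of the 9. Col1a1 was lower in line 1 by 1.35 ± 0.13, or 2.55-fold (adjusted p = 0.00034), Col5a2 by 0.33 ± 0.05 and Col1a2 by 0.26 ± 0.06, while Col5a1 was higher by 0.45 ± 0.07 (adjusted p = 0.0044). Vcan was higher in line 1 by 0.47 ± 0.08 and Timp3 by 0.33 ± 0.08, and Serpinh1, Col18a1 and Loxl2 were lower by 0.32, 0.26 and 0.21. On the probes used, the chains of type V collagen thus differed in opposite directions between these clones. The second Col5a1 probe did not show this, at -0.03 in Taf5-kd line 1 and -0.02 in line 2. Markers of other cell states moved between the same clones. Of 12 mesoderm markers, 5 were higher in line 1 and 1 lower, including T (by 2.93 ± 0.13, adjusted p = 8.7e-06), Eomes (by 0.82 ± 0.07) and Mixl1 (by 0.52 ± 0.06), and T was 2.49 in Taf5-kd line 1 and -0.45 in line 2. Of 16 parietal endoderm markers, 7 were lower in line 1 and 2 higher, and of 12 ES cell markers 5 were lower, with Zfp42 lower by 0.99 ± 0.09, and 0 higher. Their part in the collagen values was not tested.

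Other genes of the matrix, taken from lists of the same classes, gave the wider picture. Of 135 listed, 132 were tested, and 5 were higher and 3 lower in Taf5-kd than in Ctrl-kd, 6.06% of them beside 7.75% of all features. Has2, the main hyaluronan synthase of many cells, was higher by 1.54 ± 0.24 (adjusted p = 0.047), Thbs1, which encodes thrombospondin 1, by 1.22 ± 0.16 (adjusted p = 0.037), and P4hb, the shared subunit of prolyl 4-hydroxylase, by 0.90 ± 0.11 (adjusted p = 0.034). Pcolce, an enhancer of procollagen cleavage, was lower by 1.07 ± 0.11 (adjusted p = 0.028), Crtap, a partner of prolyl 3-hydroxylase, by 0.59 ± 0.09 (adjusted p = 0.043), and the collagen-cutting protease gene Ctsk by 0.26 ± 0.04 (adjusted p = 0.044). The other 2 higher genes were Ltbp3 (0.36) and Col22a1 (0.35). Against the pool, 22 (16.7%, beside 13% of all features) were lower and 3 higher in Ctrl-kd, and 24 (18.2%, beside 10.7%) were lower and 4 higher in Taf5-kd. Thbs1 was the lowest in Ctrl-kd, by 2.94 ± 0.11, and Has2 was lower there by 1.40 ± 0.17. P4hb was lower by 1.30 ± 0.08 and Bmp1, the procollagen C-proteinase, by 1.20 ± 0.08.

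Of 25 receptors for the matrix, 12 (48%, beside 13% of all features) were lower than the pool and 1 higher in Ctrl-kd, and 8 (32%, beside 10.7%) were lower and 0 higher in Taf5-kd. Between the groups, 2 (8%) were higher in Taf5-kd and 0 lower, beside 7.75% of all features called. Itgb1, the integrin beta chain shared by most collagen and fibronectin receptors, was higher by 1.30 ± 0.08 (adjusted p = 0.024), from -1.79 ± 0.05 in Ctrl-kd to -0.49 ± 0.05 in Taf5-kd. Cd44, the hyaluronan receptor, was higher by 1.27 ± 0.16 (adjusted p = 0.036). Itgb1 is on chromosome 8. In the TGF-beta pathway, which drives collagen genes in fibroblasts, 2 of 20 genes (10%) were higher in Taf5-kd and 0 lower. Of all features, 7.75% were called. The 2 genes were Tgfb1i1, higher by 0.48 ± 0.07 (adjusted p = 0.043), and Smad3, by 0.36 ± 0.05 (adjusted p = 0.037).

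Of 16 fibroblast markers, 5 (31.2%, beside 13% of all features) were lower than the pool and 2 (12.5%, beside 8.38%) higher in Ctrl-kd. The lower ones were Tagln (by 2.40 ± 0.12), Acta2 (by 0.86 ± 0.09), Cdh11 (by 0.42 ± 0.05), Twist2 (by 0.30 ± 0.04) and Pdgfrb (by 0.26 ± 0.03), and the higher ones S100a4 (0.31 ± 0.05) and Twist1 (0.28 ± 0.06). In Taf5-kd, Tagln was lower than the pool by 1.03 ± 0.12 and Twist1 higher by 0.47 ± 0.06, and no others were called. Between the groups, 2 of the 16 (12.5%) were higher in Taf5-kd and 0 lower, beside 7.75% of all features called. They were the contractile genes Tagln (1.37 ± 0.18, adjusted p = 0.037) and Acta2 (0.99 ± 0.13, adjusted p = 0.037). The other 9 markers were called neither between the groups nor against the pool, though Pdgfra was lower in Ctrl-kd line 1 than in line 2 by 2.10 ± 0.10 (adjusted p = 1.45e-05). The median of the list was -0.011 in Ctrl-kd line 1, -0.026 in Ctrl-kd line 2, -0.0095 in Taf5-kd line 1 and 0.020 in Taf5-kd line 2, and Pdgfrb was above background in the sample channel on 2 Ctrl-kd and 3 Taf5-kd arrays. Whether fibroblast-like cells or other differentiated cells in the parental cultures bear on the lower matrix genes was not tested.

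Markers of the ES cell state moved between the groups beside the matrix genes. Against the pool, 5 of 12 (41.7%, beside 8.38% of all features) were higher in Ctrl-kd and 0 lower. They included Esrrb by 1.32 ± 0.11, Klf4 by 0.88 ± 0.07 and Nanog by 0.84 ± 0.13. Between the groups, 3 (25%, beside 3.25% of all features) were lower in Taf5-kd. These were Esrrb by 1.56 ± 0.16 (adjusted p = 0.029), Klf4 by 1.21 ± 0.10 (adjusted p = 0.026) and Fgf4 by 0.82 ± 0.05 (adjusted p = 0.024). The median of the 12 was 0.42 in Ctrl-kd line 1, 0.39 in Ctrl-kd line 2, -0.24 in Taf5-kd line 1 and -0.03 in Taf5-kd line 2. The part of these markers in the matrix values was not tested.

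Among the matrix genes themselves, calls lower than the pool lay more among bright probes. The mean log2 intensity of the 33 probes ran from 6.67 to 11.28 with a median of 8.16, beside 7.94 for all features. Of the 17 genes at or above the median of the list, 10 were lower than the pool in Ctrl-kd, and of the 16 dimmer ones 5 were. In Taf5-kd, 6 of the 17 were lower and 0 higher, and of the 16 dimmer ones 2 were lower and 2 higher. The share of all features called at like brightness was not worked out, so these counts have no background beside them. Ratios of dim spots are drawn towards 0 by the offset of 50 added in background correction, and the part of this offset in the counts was not tested. On their own probes, 6 of the 33 genes were at least 1 log2 unit below the pool in Ctrl-kd line 1, 4 in Ctrl-kd line 2, 5 in Taf5-kd line 1 and 3 in Taf5-kd line 2, beside 1.63, 1.87, 0.783 and 0.875% of all features.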

How the data were processed

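The matrix genes and the other gene lists were chosen with earlier results of these data known. The deposited scanner tables hold, per the file headers, a mean intensity and a background median and SD per spot and channel, as the authors scanned them. The authors' processed matrix holds log2 ratios to the parental pool, with array medians of -0.0061 to 0.0073, per the file headers; how they were background-treated and normalized is not given in the sources used here, and their direction followed from correlations of 0.820 to 0.959 with the scanner ratios. The authors' deposited comparison table gives log2 differences and a p-value whose test is likewise not given. Of 45220 spots, 4046 are controls.

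Values came from the scanner intensities with limma 3.58.1 (R 4.3.3, statmod 1.5.0): normexp with offset 50, global loess within arrays over mouse probes, ratios turned to sample over parental pool by the labelled dyes. Probes above background (signal over background median plus 2 SD, either channel) on at least 4 arrays were kept (40860, with 314 set aside), and the brightest probe stood for a gene. Group tests used lmFit and eBayes on 1 mean per line, two-sided, with Benjamini-Hochberg adjustment. Clones were compared on arrays with a dye term. Once line means were subtracted, same-numbered arrays of different lines correlated at 0.700 to 0.829. These arrays share the dye orientation, so an effect of the dye and of array number, such as the culture or hybridisation, cannot be told apart. The dye term is thus also the replicate block of the alternatives, and every line mean holds both dyes. The calls were checked on simulated data, where a random-block fit of arrays made more false calls than line means and also recovered more of the changes put in. Symbols come from GEO's platform annotation and chromosomes from RefSeq (GRCm38.p6). Alternatives changed the fit, background correction, normalization, filter, probe rule and arrays. Genes were named by this rule: every listed member is accounted for, statistics go to up to 10 called members per comparison and the nearest misses, and in other lists to up to 3 called genes per direction. The group values of P4ha2 and Serpinh1, all called fibroblast markers and Pdgfra were added after their values were seen. Plots used Python 3.11.15 with matplotlib 3.10.9.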

Additional observations from a re-analysis of the deposited data

Results flagged for a closer look

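Col5a2 lay below the parental level on all 4 Ctrl-kd arrays and above it on all 4 Taf5-kd arrays, a difference of 0.90 on the log2 scale. On its brightest probe, P4ha2 lay on opposite sides of the parental level in the Ctrl-kd lines, a difference of -1.45 between line 1 and line 2. Its much dimmer second probe read 0.03 and 0.06 there. Among 66 sets of 4 arrays (33 genes in 2 groups), 2 held a value far from the other 3 by Dixon's criterion (0.829 for 4 values). Its rate of about 1 in 20 is for independent values, and does not apply to arrays that come in pairs from the same clone. Both flagged values were on the first array of Ctrl-kd line 2. Col6a2 was 0.028 beside 0.046 to 0.049 on the other Ctrl-kd arrays, and Lum was 0.14 beside 0.023 to 0.037. Neither gene was called in any comparison.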

How the results depend on the processing

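Between the groups, 3 matrix genes were called, and 9 (6 higher, 3 lower) with arrays fitted with the line as a random block, with or without the replicate block, 0 with median centring in place of loess, 0 without any 1 of the lines, and 0 to 4 without single arrays. For Ctrl-kd against the pool, 15 were called, 6 with median centring, 4 (1 higher, 3 lower) without Ctrl-kd line 1, 5 without Ctrl-kd line 2 and 12 to 14 without single arrays. For Taf5-kd against the pool, 10 were called, 17 with the random block and the replicate block, 19 without the replicate block, 1 with median centring, 0 without either Taf5-kd line, and 9 to 12 without single arrays. Between the Taf5-kd lines, 9 were called, 3 with no replicate block, 1 with median centring, 5 with the mean over probes and 2 to 11 without single arrays. Between the Ctrl-kd lines, 8 were called, 2 with no replicate block, 2 with median centring and 5 to 10 without single arrays. Over all features, Taf5-kd against Ctrl-kd gave 1950 calls (1133 higher, 817 lower), 5673 and 5594 with the random block, with and without the replicate block, 106 (51 higher, 55 lower) with median centring, and 0 to 110 without a line. The counts over all features against the pool were 5378 for Ctrl-kd, 8243 with the random block and 1171 with median centring, and 4631 for Taf5-kd (1947 higher, 2684 lower), 7853 and 148 (29 higher, 119 lower). They were 3408 between the Taf5-kd lines, 923 with no replicate block and 94 with median centring, and 3375 between the Ctrl-kd lines (1675 higher, 1700 lower), 936 and 322 (13 higher, 309 lower). No direction reversed under these alternatives for genes called or nearest to the threshold in a comparison. The uncalled group differences of Timp3, Col1a1, Fn1 and Col18a1 were followed through the same alternatives and kept their sign. For the other genes not called between the groups, signs were followed only without a line. Of all 30 not called, 10 changed sign there, by most for Serpinh1 (-0.36 to 1.34) and P4ha2 (-0.55 to 0.90). Leaving out a line leaves few degrees of freedom and 1 line in its group. The counts over all features then fell too in the comparisons of that group. The cause of the changes in count was not tested. Slide or scan could not be a block, as no header names them.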
